A study of Mus musculus with 8 samples.

Results

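The genes described are 9 members of the machinery that releases neurotransmitter from synaptic vesicles, followed in the cerebellum of old and young mice. They are Syt1, Syt2, Snap25, Vamp1, Vamp2, Syn1, Syn2, Syn3 and Sv2a, taken by name from the tables of gene counts, and they make up 9 of the 17700 genes listed. All 9 passed the filter on low counts, which left 14191 genes for testing. The old group held 4 C57BL/6JN mice, males of 93 and 83 weeks (old 1 and old 3) and females of 83 and 102 weeks (old 2 and old 4). The young group held 4 mice of the same strain, 2 males of 19 weeks (young 1 and young 2) and females of 19 and 22 weeks (young 3 and young 4). The labels name no engineered allele and no treatment other than age in either group. Each library was made from total RNA of frozen cerebellum after removal of ribosomal RNA. The design text of the series names liver and other ages, so tissue, age and sex follow the sample labels.

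Release begins when calcium enters a nerve terminal and binds a synaptotagmin on the vesicle. The vesicle synaptobrevins (VAMPs) zip together with SNAP-25 and syntaxin of the plasma membrane into the SNARE complex, and the vesicle fuses. Synapsins tether the reserve of vesicles, and SV2 proteins are vesicle glycoproteins that support priming for release. In the cerebellum this machinery serves granule neurons, Purkinje cells, inhibitory interneurons and the neurons of the cerebellar nuclei, so a level in whole tissue is a sum over all of them. In such a sum, fewer cells of a type and less RNA per cell cannot be told apart.

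Libraries held 6079485 to 7236720 counts, and levels are given as CPM, counts scaled to a common library size after TMM adjustment. At this depth 3 counts of a gene equalled 0.421 to 0.511 CPM, a floor that covers counting error only. The defining markers of cerebellum were abundant in every library, at 219.8 CPM or more for Gabra6, Cbln3, Neurod1 and Fat2 of granule neurons and at 139 CPM or more for Pcp2, Calb1 and Car8 of Purkinje cells. Granule neuron marker scores, each the median over markers of log2 CPM minus its all-library mean, ran from -0.38 in old 4 to 0.38 in young 4. The 14 granule neuron markers summed to between 4503 and 6281 CPM in old libraries and between 4968 and 7571 CPM in young ones. The summed level of liver transcripts was 84.2 CPM for old 2, 23.6 for old 3 and 21.2 for young 4, and at most 9.63 CPM for the other 5 libraries. Choroid plexus markers were uneven, with the 11 of the list summing to between 109 and 1657 CPM in old and between 85.6 and 742 CPM in young libraries. All 11 had a positive log2 fold change, old minus young (median 1.16), and their part in the members' values was not tested beyond a fit with their score. The 12 microglia markers summed to between 234 and 467 CPM in old libraries and between 143 and 184 CPM in young ones.

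Promoter sequence is shown for 4 members. Sv2a, Syn2 and Syt2 are those whose old values all lay below their young values, and Syn1 is shown because its promoter held motifs that the other 5 members with a promoter entry lacked. The lines give bases before the RefSeq start of each gene (GRCm38.p6), on the gene's strand, without those that GENCODE M21 places in an exon. Capitals mark motif matches. Searched on both strands were the RE1 element of the repressor REST, with at most 1 mismatch, TGACGTCA (the CRE of CREB factors), GCGGGGGCG and GCGTGGGCG (EGR factors) and GGGCGG (the GC box).
Sv2a, chr3:96180977-96181150, plus strand: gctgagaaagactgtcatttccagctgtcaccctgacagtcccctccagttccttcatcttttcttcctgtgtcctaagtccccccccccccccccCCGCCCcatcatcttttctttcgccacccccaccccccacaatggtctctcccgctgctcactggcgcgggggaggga
Syn2, chr6:115134652-115134901, plus strand: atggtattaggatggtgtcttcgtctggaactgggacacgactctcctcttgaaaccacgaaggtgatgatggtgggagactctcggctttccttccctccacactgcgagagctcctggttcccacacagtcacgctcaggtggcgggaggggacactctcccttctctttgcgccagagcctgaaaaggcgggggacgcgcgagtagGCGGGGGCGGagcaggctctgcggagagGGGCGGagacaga
Syt2, chr1:134646362-134646611, plus strand: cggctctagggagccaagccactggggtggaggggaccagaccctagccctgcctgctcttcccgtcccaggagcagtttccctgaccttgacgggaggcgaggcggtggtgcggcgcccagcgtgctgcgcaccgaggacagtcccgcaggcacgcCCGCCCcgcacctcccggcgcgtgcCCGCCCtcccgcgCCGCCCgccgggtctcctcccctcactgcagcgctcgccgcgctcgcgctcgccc
Syn1, chrX:20921005-20921168, minus strand: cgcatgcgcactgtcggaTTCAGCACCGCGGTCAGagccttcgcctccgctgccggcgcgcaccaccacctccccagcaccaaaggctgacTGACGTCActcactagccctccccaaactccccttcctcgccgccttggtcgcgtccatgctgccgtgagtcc

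The Syn1 stretch held an RE1 match 232 bases before the RefSeq start and a CRE 159 bases before it. RE1 matches stood in 0.0517% of the 32851 promoters searched over the same 250 bases, and the CRE in 1.55%. Syn2 held an EGR match 41 bases before its start, found in 2.57% of promoters, which overlaps the first of its 2 GC boxes. GC boxes stood in at least 1 promoter entry of Sv2a, Syn2, Syt2, Syt1 and Vamp1, and in 32.7% of all promoters, a share of entries rather than genes. Syn2, Syt2 and Syt1 had 2 entries each, and the first is the one printed for Syn2 and Syt2. The second entries of Syn2 and Syt1 held no GC box, and that of Syn2 held no EGR match. RefSeq promoter entries matched 6 of the 9 members, and those not matched were Snap25, Vamp2 and Syn3. A match describes letters and does not show that a factor binds there.

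No member passed the test for age. In the quasi-likelihood fit of edgeR with terms for age and sex and Benjamini-Hochberg adjustment over all 14191 genes, 0 of 9 members had an adjusted p under 0.05, where 0.12% of all tested genes did (17 genes). Sv2a alone had an unadjusted p under 0.05, against 11% of all genes, and DESeq2's Wald test called 1 member, Sv2a. Log2 fold changes, old minus young, were negative for 7 members and positive for Snap25 and Syn3. Their median was -0.10, beside -0.01 over all tested genes, of which 51.4% were negative. In 3 members, Sv2a, Syn2 and Syt2, every old value lay below every young value, which 3.42% of all tested genes showed, and in 0 members was every old value the higher (3.15% of all tested genes). That count was 1, Sv2a, when CPM were scaled to library totals without TMM.

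**Figure D1:**
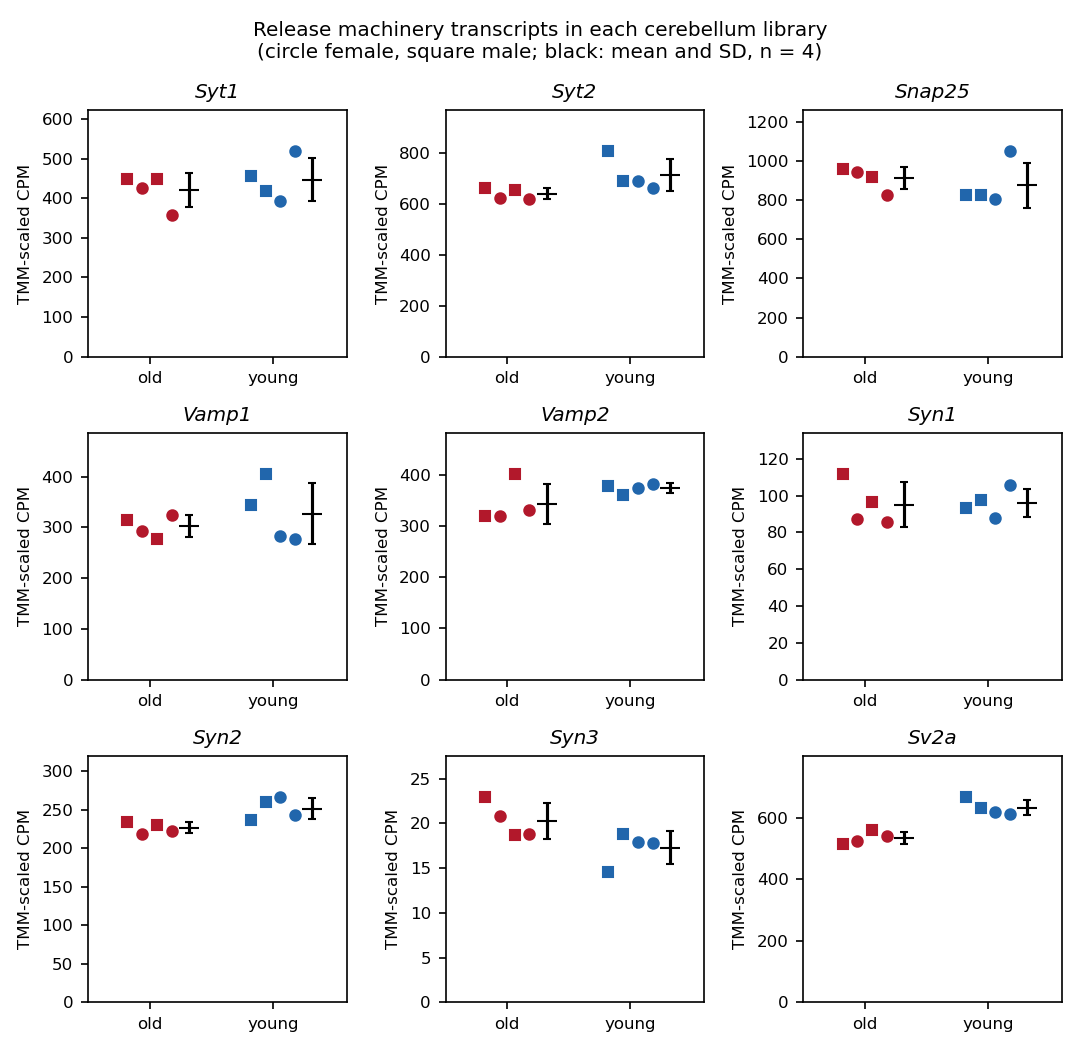
TMM-scaled CPM of each member (vertical axes, from 0) in the 4 old and the 4 young libraries, with circles for females, squares for males and the mean and SD of each age in black. Sv2a, Syn2 and Syt2 are the panels in which all old points lie below all young points, and in Syt2 the ages almost touch, at 663.90 CPM in old 1 and 664.04 CPM in young 4.

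Sv2a (chr3:96181151-96195521, plus strand, GRCm38) encodes the most widely expressed SV2 vesicle glycoprotein, the brain binding site of the antiepileptic drug levetiracetam. Its transcript stood at 516, 524, 559.9 and 541 CPM in old 1 to old 4, against 666, 632, 618 and 612 CPM in young 1 to young 4. The libraries of each age lay close together, and the highest old library, old 3, was well below the lowest young one, young 4. Sv2a averaged 535 ± 19.6 CPM in old and 632 ± 24.3 CPM in young mice (SD, n = 4 each), a log2 fold change of -0.24 ± 0.07 (SE) with a 95% interval of -0.39 to -0.09. It ranked 306th of 14191 genes by p, and its Benjamini-Hochberg adjusted p was 0.229 by edgeR (quasi-likelihood) and 0.0498 by DESeq2. Over the 21 other settings run, the log2 fold change lay between -0.27 and -0.21. The promoter stretch printed for Sv2a holds 1 GC box and none of the other motifs.

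The relatives Sv2b and Sv2c encode the remaining SV2 proteins. Sv2a to Sv2b CPM ratios were 1.62 to 2.00 in old and 1.62 to 2.19 in young libraries. Sv2a to Sv2c ratios were 3.12 to 3.34 in old and 3.05 to 4.35 in young libraries. Both ratios overlapped between the ages.

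Synaptotagmins 1 and 2 are the calcium sensors of fast, synchronous release, and Syt2 is known for its use in caudal brain regions. Syt1 lies at chr10:108497650-109010982 on the minus strand and Syt2 at chr1:134646677-134762593 on the plus strand (GRCm38). Syt2 stood at 664, 624, 655 and 621 CPM in old 1 to old 4, against 808, 693, 692 and 664 CPM in young 1 to young 4. The ages met almost exactly at old 1 and young 4, and young 1 was the highest library. Syt2 averaged 641 ± 21.9 CPM in old and 714 ± 63.9 CPM in young mice (SD, n = 4 each), with a log2 fold change of -0.16 ± 0.08 (SE) and an adjusted p of 0.478 by edgeR.

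Syt1 stood at 448, 427, 449.5 and 358 CPM in old 1 to old 4, against 457, 419, 394 and 518 CPM in young 1 to young 4. The ages overlapped, with the lowest value in old 4 and the highest in young 4, which were also the libraries with the lowest and the highest granule neuron score. The log2 fold change of Syt1 was -0.09 ± 0.10 (SE), with an adjusted p of 0.786 by edgeR. Adding that score to the model gave 0.02 ± 0.08 (SE), and leaving out young 4 gave 0.02 ± 0.09 (SE).

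More counts came from Syt2 than from Syt1 in every library. The ratio of Syt2 to Syt1 CPM was 1.48, 1.46, 1.46 and 1.74 in old 1 to old 4, against 1.77, 1.65, 1.75 and 1.28 in young 1 to young 4. Old 4 stood above the other old libraries and young 4 below the other young ones, so the ages overlapped. The coding sequences of the pair are identical at 75.2% of aligned bases, and their longest shared run is 26 bases.

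Snap25 (chr2:136713453-136782428, plus strand, GRCm38) encodes the plasma membrane SNARE of the fusion complex, and it was the member with the most counts, 4725 to 7486 per library. The gene carries 2 versions of an internal coding exon that are known to be exchanged as the brain matures, and gene counts sum both. They are printed because the sum hides which version was used, with capitals at the 31 of 118 bases that differ.
First version, chr2:136769743-136769860, plus strand: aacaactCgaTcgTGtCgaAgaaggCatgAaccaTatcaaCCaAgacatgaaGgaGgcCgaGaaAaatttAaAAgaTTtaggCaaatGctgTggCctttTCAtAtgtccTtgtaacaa
Second version, chr2:136770057-136770174, plus strand: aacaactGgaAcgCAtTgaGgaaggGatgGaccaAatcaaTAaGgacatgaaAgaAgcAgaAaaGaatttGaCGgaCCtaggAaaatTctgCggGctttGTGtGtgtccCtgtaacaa

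Snap25 stood at 959, 945, 922 and 829.4 CPM in old 1 to old 4, against 828.6, 825, 805 and 1050.3 CPM in young 1 to young 4. Young 4 stood far above the other young libraries, which all lay below the lowest old value. Snap25 averaged 914 ± 58.1 CPM in old and 877 ± 116 CPM in young mice (SD, n = 4 each). The log2 fold change was 0.06 ± 0.10 (SE), with an adjusted p of 0.867 by edgeR. Without young 4 it was 0.17 ± 0.08 (SE), with an adjusted p of 0.52 by edgeR. That was the highest value with 1 library left out, over which it ran from 0.008 to 0.165.

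Vamp1 and Vamp2 encode synaptobrevins 1 and 2, the vesicle SNAREs, of which Vamp2 predominates in the forebrain and Vamp1 is prominent in brainstem and spinal cord. Vamp1 lies at chr6:125215551-125245964 and Vamp2 at chr11:69088490-69092384, both on the plus strand (GRCm38). Their coding sequences are identical at 75.3% of 348 aligned bases, with a longest shared run of 18 bases. The windows below come from the region that enters the SNARE complex and are the most alike, with 82 of 90 bases identical and the differing bases in capitals.
Vamp1, coding bases 103 to 192: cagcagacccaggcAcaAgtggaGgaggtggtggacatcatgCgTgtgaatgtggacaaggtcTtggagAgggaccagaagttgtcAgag
Vamp2, coding bases 97 to 186: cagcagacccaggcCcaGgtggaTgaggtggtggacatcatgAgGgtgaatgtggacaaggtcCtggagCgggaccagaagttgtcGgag

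Vamp2 stood at 319.8, 320.1, 402 and 331 CPM in old 1 to old 4, against 378, 361, 374 and 384 CPM in young 1 to young 4. Old 3 was the highest of all 8 libraries, and the other old libraries lay below every young one. Vamp2 averaged 343 ± 39.4 CPM in old and 374 ± 9.75 CPM in young mice (SD, n = 4 each). The log2 fold change was -0.13 ± 0.09 (SE), with an adjusted p of 0.631 by edgeR. Without old 3 it was -0.22 ± 0.08 (SE), with an adjusted p of 0.217 by edgeR. That was the largest change with 1 library left out, over which the value ran from -0.217 to -0.082.

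Vamp1 stood at 316, 293, 277 and 325 CPM in old 1 to old 4, against 344, 405, 284 and 277 CPM in young 1 to young 4. The ages overlapped, and within the young group the 2 males were higher than the 2 females. Vamp1 averaged 303 ± 21.9 CPM in old and 327 ± 59.9 CPM in young mice (SD, n = 4 each), with a log2 fold change of -0.10 ± 0.11 (SE) and an adjusted p of 0.775 by edgeR. That fold change was -0.20 ± 0.08 (SE) with the granule neuron score in the model. It ran from -0.176 to -0.007 with 1 library left out. The ratio of Vamp1 to Vamp2 CPM was 0.688 to 0.987 in old and 0.722 to 1.12 in young libraries.

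Synapsins are phosphoproteins on the cytoplasmic face of the vesicle. Syn1 lies at chrX:20860511-20921004 on the minus strand, Syn2 at chr6:115134902-115282006 on the plus strand and Syn3 at chr10:86055125-86498896 on the minus strand (GRCm38). Syn2 stood at 235, 219, 229.7 and 223 CPM in old 1 to old 4, against 237, 260.1, 266 and 243 CPM in young 1 to young 4. All old values lay below all young ones, with old 1 just under young 1. Syn2 averaged 227 ± 7.03 CPM in old and 252 ± 13.9 CPM in young mice (SD, n = 4 each), with a log2 fold change of -0.15 ± 0.07 (SE) and an adjusted p of 0.463 by edgeR.

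Syn1, the X-linked synapsin used by most mature neurons, stood at 112, 87.1, 96.5 and 85.5 CPM in old 1 to old 4, against 93.2, 97.7, 87.9 and 106 CPM in young 1 to young 4. Old 1 was the highest library and old 4 the lowest, so the young values lay within the old range. The log2 fold change of Syn1 was -0.02 ± 0.09 (SE), with an adjusted p of 0.96 by edgeR, and it was positive with a stricter filter, with the granule neuron or choroid plexus score in the model and without the 3 libraries richest in liver transcripts.

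Syn3, a synapsin best known from early stages of neuron growth, had the fewest counts of the members, 94 to 145 per library. It stood at 22.9, 20.9, 18.7 and 18.8 CPM in old 1 to old 4, against 14.6, 18.8, 17.9 and 17.8 CPM in young 1 to young 4. The ages overlapped, at old 3 and old 4 with young 2. Syn3 averaged 20.3 ± 2.01 CPM in old and 17.3 ± 1.86 CPM in young mice (SD, n = 4 each), with a log2 fold change of 0.24 ± 0.13 (SE) and an adjusted p of 0.547 by edgeR. Counting error alone gives a coefficient of variation of 9.07% at its mean count, close to the 9.90% measured among old and 10.7% among young libraries.

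The ratio of Syn3 to Syn2 CPM was 0.0977, 0.0953, 0.0815 and 0.0843 in old 1 to old 4, against 0.0615, 0.0723, 0.0672 and 0.0734 in young 1 to young 4. Every old ratio was higher than every young one, and the mean log2 ratio was -3.48 ± 0.13 in old and -3.87 ± 0.12 in young mice (SD, n = 4 each). This ratio was singled out after its values were seen, among 6 ratios computed, and it was not tested. Its denominator, Syn2, already had every old value below every young one, so the ratio partly repeats that difference. The other 5 ratios overlapped between the ages. Syn1 to Syn2 was 0.384 to 0.476 in old and 0.33 to 0.436 in young libraries.

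Each synapsin gene holds a gene of a TIMP metalloproteinase inhibitor on its opposite strand, and the strand setting of the counting is not given in the sources used here. Timp3 lies inside Syn3 and shares 1733 bases of annotated exon with it. Timp3 stood at 151, 153, 123 and 161 CPM in old 1 to old 4, against 103, 139, 134 and 97.2 CPM in young 1 to young 4, several times the level of Syn3. Its log2 fold change was 0.31 ± 0.13 (SE), with an adjusted p of 0.421 by edgeR, the same sign as Syn3, and whether reads of Timp3 entered the Syn3 count was not tested. Timp4 lies inside Syn2 with 90 shared exon bases and had a log2 fold change of -0.17 ± 0.10 (SE), and Timp1 lies inside Syn1 with 0 shared exon bases and stood at 3.56 ± 0.38 CPM in old and 3.04 ± 0.49 CPM in young mice (SD, n = 4 each). In Vamp1, the opposite-strand genes Tapbpl and Cd27 share 0 exon bases with it.

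**Figure D2:**
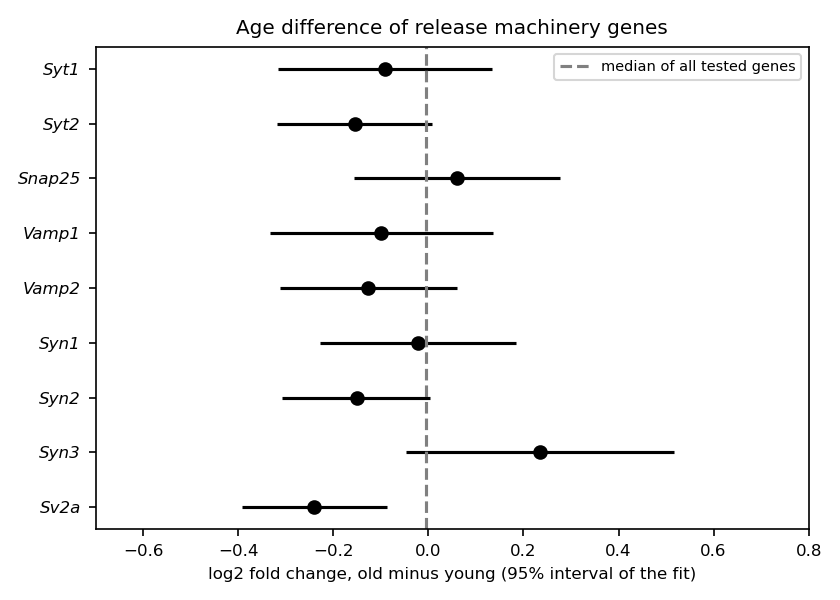
Log2 fold change of each member, old minus young, on the horizontal axis, with the 95% interval of the edgeR quasi-likelihood fit as a bar and the median of all tested genes as a dashed line. Sv2a at -0.24 is the member whose interval, -0.39 to -0.09, leaves out 0, and Syn3 at 0.24 and Snap25 at 0.06 are the members on the positive side.

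Divided by the length of all annotated exons of each gene (CPM per kb), the members ranked from 116th (Snap25) to 11784th (Syn3) of 17587 genes with a length. The mean over the 8 libraries was 132 CPM per kb for Snap25 (119 to 155 over libraries) and 126 for Sv2a (111 to 144). Vamp2 followed at 94.1 CPM per kb (83.9 to 105) and Syt2 at 88.7 (81.3 to 106). Within each of these neighbouring pairs the libraries overlapped, while Sv2a and Vamp2 did not overlap.

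Syt1 averaged 52.0 CPM per kb, with no library as high as the lowest of Syt2 and none as low as the highest of Syn2. Syn2, Vamp1 and Syn1 averaged 34.0, 31.0 and 29.0 CPM per kb, and neighbours among them overlapped. Syn3 was far below the others at 1.53 CPM per kb (1.19 to 1.87). Divided instead by the length of the longest coding transcript, the order changed, and Vamp1 moved to the fourth place at 105 CPM per kb, while Snap25 stayed highest at 423 and Syn3 lowest at 4.69.

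**Figure D3:**
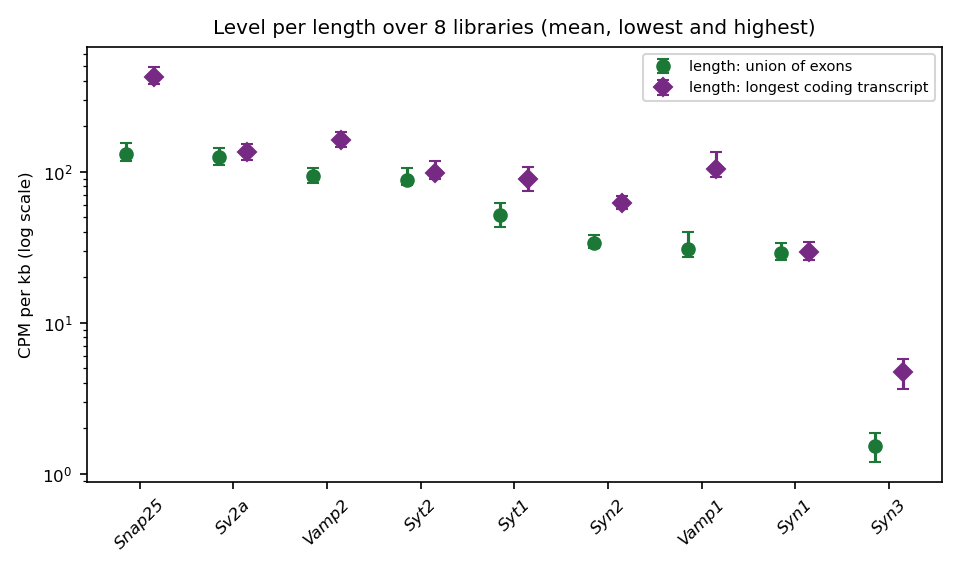
CPM per kb of each member on a logarithmic axis, as the mean over the 8 libraries with bars from the lowest to the highest library, for the union of exons (circles) and the longest coding transcript (diamonds). By the union of exons, Snap25 and Sv2a overlap at the top, Syn2, Vamp1 and Syn1 overlap near 30 CPM per kb, and Syn3 stands alone at 1.19 to 1.87.

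No member passed the test for sex. Log2 fold changes, female minus male, were negative for 7 of 9 members, beside 47.1% of all tested genes, with a median of -0.06. By the edgeR quasi-likelihood fit 0 of 9 members had an adjusted p under 0.05, where 0.0423% of all tested genes did, and 0 had an unadjusted p under 0.05, against 4.76%. The sexes overlapped in all 9 members, against 0.768% of all tested genes with every female value lower and 1.48% with every female value higher. Vamp1 had the largest difference of the members, 295 ± 21.4 CPM in females and 335 ± 54.0 CPM in males (SD, n = 4 each), at -0.18 ± 0.11 (SE) on the log2 scale with an adjusted p of 0.93 by edgeR.

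The age difference of Vamp1 ran in opposite directions in females and males. Vamp1 stood at 293 and 325 CPM in old females, against 284 and 277 CPM in young females, and at 316 and 277 CPM in old males, against 344 and 405 CPM in young males. Both old females were above both young females, and both old males were below both young males. The share of all tested genes with opposite directions of this kind was not counted. The log2 difference between old and young means was 0.14 in females and -0.34 in males, and the interaction of age and sex was 0.48 ± 0.17 (SE), with an unadjusted p of 0.0177 and an adjusted p of 1 in the edgeR quasi-likelihood fit across all genes. No member passed the adjusted threshold for the interaction, and 0% of all tested genes passed it. In the same edgeR fit 2.3% of all tested genes had an unadjusted p under 0.05, and DESeq2 called 0 members. The unadjusted p of each of the other 8 members was 0.13 or higher. Among them the sign also differed between females and males for Syt1 (-0.21 and 0.04), Snap25 (-0.06 and 0.19) and Syn1 (-0.16 and 0.12). The interval of the Syn1 interaction ran from -0.69 to 0.10, and that of Sv2a from -0.26 to 0.38, so differences of these sizes between the sexes could not be told from 0 with 2 mice in each cell.

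Markers of neurons of the brainstem and cerebellar nuclei also varied across these libraries. Slc17a6, the vesicular glutamate transporter of those neurons, stood at 44.6 and 89.6 CPM in old females, against 70.7 and 51.6 CPM in young females, and at 116 and 31.0 CPM in old males, against 89.8 and 159 CPM in young males. Young 2 was the highest library for both Slc17a6 and Vamp1, and old 3 was the lowest for both. For Vamp1, old 3 at 276.58 CPM was almost level with young 4 at 276.81 CPM. Other markers of the list varied in other ways. Glra1 was also highest in young 2, at 17.2 CPM, but Kcna1 was highest in young 1 (521 CPM) and lowest in old 1 (350 CPM). Spp1 was highest in old 4, at 76.5 CPM. The score of this list, taken over its 12 tested markers, was highest in young 2 at 0.80 and lowest in young 4 at -0.63, followed by old 3 at -0.55. The 20 markers of this list summed to between 758 and 866 CPM in old and between 807 and 1037 CPM in young libraries, 12 of the 20 had enough counts to be tested, and the Hox genes of the list were at or under 0.63 CPM, with Hoxc4 at 0 counts in 6 of the 8 libraries. With the score of this list as a covariate, chosen after seeing the data, the Vamp1 interaction was 0.26 ± 0.19 (SE), with an adjusted p of 0.921 by edgeR. The part of these neurons in the Vamp1 values was not tested beyond that fit.

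**Figure D4:**
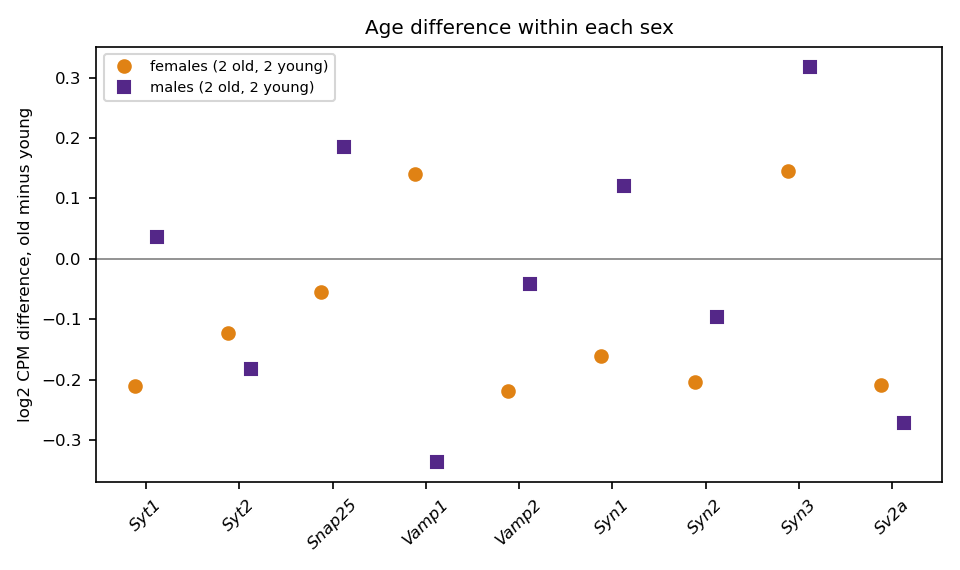
Difference in log2 CPM, old minus young, of each member within females (circles) and within males (squares), each from 2 old and 2 young mice and with no error drawn. Vamp1 has the widest gap between the sexes, with 0.14 in females and -0.34 in males, while Syt2, Syn2, Syn3, Vamp2 and Sv2a have 1 sign in both.

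Spread among mice differed between members. The coefficient of variation ran from 3.10% for Syn2 to 12.6% for Syn1 among old libraries, and from 2.61% for Vamp2 to 18.3% for Vamp1 among young ones. The highest library exceeded the lowest by 1.22-fold for Syn2 and by 1.57-fold for Syn3, with the others between. The 9 members together took 0.333% to 0.387% of the adjusted total of each library.

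Other genes of the release cycle were tabulated from lists chosen beside the members, and none of their genes passed the adjusted threshold for age in the edgeR quasi-likelihood fit. Among partners of the fusion machinery, 20 of 25 tested genes had a negative log2 fold change, with a median of -0.13, beside 51.4% negative and a median of -0.01 over all tested genes. An unadjusted p under 0.05 was found for 2 of the 25, against 11% of all tested genes. The ages failed to overlap for 0 of the 25, beside 3.42% of all tested genes with every old value lower and 3.15% with every old value higher. Sncb, beta-synuclein, averaged 134 ± 12.5 CPM in old and 164 ± 27.0 CPM in young mice (SD, n = 4 each), with an adjusted p of 0.287 by edgeR. Other genes named from this list were Cplx2, a complexin that clamps assembled SNAREs, at -0.30 ± 0.14 (SE) on the log2 scale, and the Rab3 effector Rph3a at -0.16 ± 0.08 (SE).

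Active zone scaffolds, which hold vesicles at release sites, had 12 of 13 negative values with a median of -0.16. For 2 of the 13 the unadjusted p was under 0.05, against 11% of all tested genes. The ages overlapped in all 13, beside 3.42% of all tested genes with every old value lower and 3.15% with every old value higher. Rims3, a short RIM protein, had the smallest adjusted p of the release lists, 0.0995 by edgeR, at 254 ± 46.3 CPM in old and 349.6 ± 48.9 CPM in young mice (SD, n = 4 each). The liprins Ppfia3 and Ppfia4 and the ELKS protein gene Erc1 followed, at -0.36 ± 0.10 (SE), -0.25 ± 0.13 (SE) and -0.28 ± 0.13 (SE) on the log2 scale. Vesicle membrane proteins and transporters had 16 of 19 negative values with a median of -0.13. Of the 19, 2 had an unadjusted p under 0.05, against 11% of all tested genes. Every old value was the lower for 3 of the 19, against 3.42% of all tested genes. Syp, synaptophysin, which binds synaptobrevin on the vesicle, averaged 419.5 ± 35.04 CPM in old and 516 ± 34.1 CPM in young mice (SD, n = 4 each) with no overlap, at -0.30 ± 0.08 (SE) on the log2 scale and an adjusted p of 0.191 by edgeR. Scamp5, also without overlap, was at -0.22 ± 0.07 (SE), the glutamate transporter gene Slc17a7 at -0.37 ± 0.17 (SE) and synaptogyrin 1 (Syngr1) at -0.21 ± 0.10 (SE). Slc17a7 is also on the granule neuron marker list.

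Genes of vesicle endocytosis and recycling had 19 of 26 negative values with a median of -0.07. For 9 of the 26 the unadjusted p was under 0.05, 8 of them negative, against 11% of all tested genes in either direction. Every old value was the lower for 5 of the 26, against 3.42% of all tested genes. Dnm1, the dynamin that pinches off recycled vesicles, averaged 349 ± 30.9 CPM in old and 421 ± 39.6 CPM in young mice (SD, n = 4 each) with no overlap and an adjusted p of 0.277 by edgeR. The clathrin adaptor subunits Ap2m1 and Ap2s1, both without overlap, were at -0.29 ± 0.08 (SE) and -0.30 ± 0.11 (SE), and Pacsin1, which binds dynamin, at -0.27 ± 0.10 (SE). The other synaptotagmins had 12 of 14 negative values with a median of -0.10. Of the 14, 2 had an unadjusted p under 0.05, against 11% of all tested genes. Every old value was the lower for 1 of the 14, against 3.42% of all tested genes. Syt13 averaged 187.5 ± 18.2 CPM in old and 223 ± 10.3 CPM in young mice (SD, n = 4 each) with no overlap. Syt5, Syt11 and Syt16 followed, at -0.67 ± 0.25 (SE), -0.16 ± 0.08 (SE) and -0.47 ± 0.36 (SE).

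The remaining SNAP and VAMP genes had 6 of 9 positive values with a median of 0.07. Of the 9, 1 (Snap23) had an unadjusted p under 0.05, against 11% of all tested genes. Every old value was the higher for 1 of the 9, against 3.15% of all tested genes. Snap23, the SNAP-25 relative of cells outside the synapse, averaged 23.8 ± 1.94 CPM in old and 19.6 ± 0.63 CPM in young mice (SD, n = 4 each), with every old value above every young one and an adjusted p of 0.35 by edgeR. Ykt6, Snap47 and Vamp8 were at -0.15 ± 0.10 (SE), -0.09 ± 0.07 (SE) and -0.16 ± 0.19 (SE). Beside these lists, log2 fold changes were negative for 13 of 14 markers of granule neurons (median -0.15), for 13 of 14 of Purkinje cells (median -0.19) and for 9 of 13 of inhibitory interneurons (median -0.04). Values were also negative for 12 of 14 markers of astrocytes and Bergmann glia (median -0.17) and 9 of 12 of oligodendrocytes (median -0.17). Microglia markers went the other way, with 12 of 12 positive. Every old value was the higher for 8 of these 12, against 3.15% of all tested genes. Of the brainstem and cerebellar nuclei neuron markers 7 of 12 were positive (median 0.09). The part of cell makeup in the members' values was not tested beyond the fits with a marker score.

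**Figure D5:**
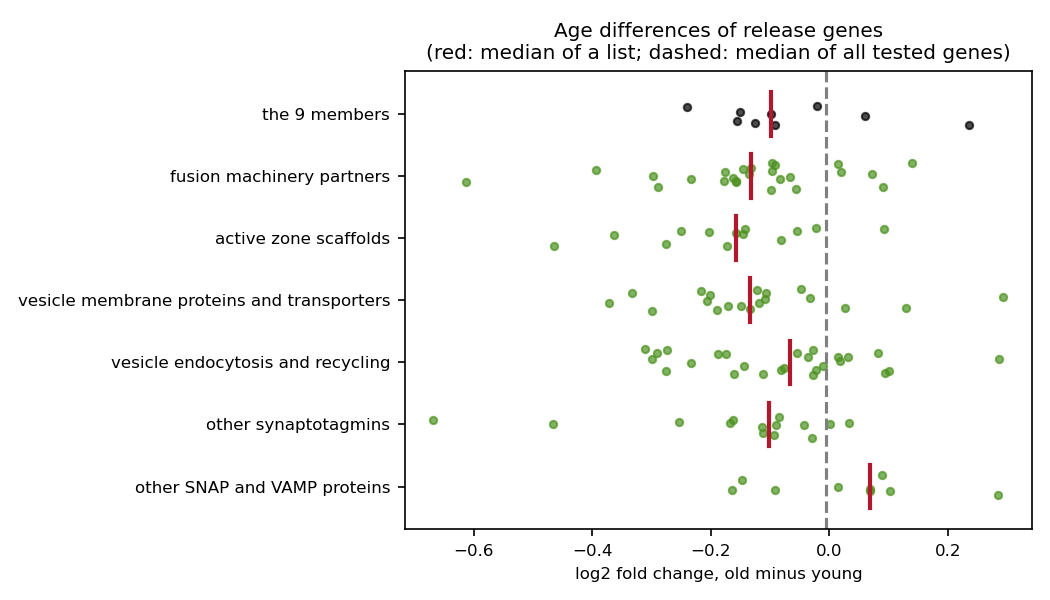
Log2 fold change, old minus young, of every tested gene among the members and in 6 lists of other release genes, with the median of each list in red and that of all tested genes dashed. The members' median of -0.10 lies among those of the other lists, from -0.16 for active zone scaffolds to 0.07 for the other SNAP and VAMP genes.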

How the data were processed

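Total RNA of frozen cerebellum was taken from 8 C57BL/6JN mice and libraries were made with a ribosomal RNA depletion kit, per the labels' protocols. The authors deposited 1 table of raw counts per gene for each library, whole numbers that had not been normalized, per the file headers. Per the submitters' processing notes, Trimmomatic 0.39, STAR 2.7.5b and featureCounts were used with GRCm38 (mm10). Annotation, strand setting and treatment of multimapping reads were not given in the sources used, so a member may share reads with a paralog or with a gene that overlaps it. Totals were 6079485 to 7236720 counts, and no library pair matched within sampling noise. In 7 of the 8 tables dates stood for 24 of the names, none of them a member's, and tables were joined by row.

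Genes were filtered with filterByExpr (minimum count 10) and scaled with TMM, and edgeR 4.0.16 (R 4.3.3) quasi-likelihood was fitted with age and sex to all 14191 genes, with Benjamini-Hochberg adjustment over them and a threshold of 0.05. Log2 CPM use a prior count of 2. The interaction was fitted over the 4 cells of age and sex. Members and lists were chosen with earlier results of these data known. Named genes were all members, the 4 genes with the smallest p of each list and the 6 genes closest in profile. A gene that this rule takes in is not reported here. Slc17a6, the SV2 relatives and the TIMP genes were named after their values were seen. Coordinates of exons are from GENCODE M21 and promoters from RefSeq GRCm38.p6. Alternatives were DESeq2 1.42.0, limma-voom (limma 3.58.1), other filters and dispersions, no term for sex, a replicate block, marker scores as covariates, age in weeks and each library left out.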

Additional observations from a re-analysis of the deposited data

Results flagged for a closer look

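Screening 18 groups of member values and 12 of ratios for a library standing apart from the other 3 of its age by Dixon's criterion for groups of 4 picked out 3, where chance picks about 1 group in 20. Snap25 in young 4, at 1050.3 CPM against 805 to 829 CPM in the other young mice, had a gap of 0.892 of its group's range on the log2 scale. Vamp2 in old 3, at 402 CPM against 319.8 to 331 CPM in the other old mice, had a gap of 0.848. The ratio of Syt2 to Syt1 in old 4, at 1.74 against 1.46 to 1.48 in the other old mice, had a gap of 0.922. Young 4 had the highest granule neuron score, 0.38, and old 4 the lowest, -0.38. With that score in the model the Snap25 age difference was 0.14 ± 0.08 (SE) on the log2 scale, beside 0.06 ± 0.10 (SE) without it. The part of granule neuron RNA in the Syt2 to Syt1 ratio was not tested.

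Vamp1 was picked out because its age difference ran in opposite directions in females and males. The rule was applied to the members only, so how often other genes meet it is not known. The interaction was 0.48 on the log2 scale with an unadjusted p of 0.0177 and an adjusted p of 1 in edgeR's quasi-likelihood fit. Over the 10 other settings run it lay between 0.26 and 0.60.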

How the results depend on the processing

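Depth limited Syn3 most among the members, with 94 to 145 counts a library. The count of members past the threshold for age was 0 in every setting except DESeq2's Wald test, which called 1. The median log2 fold change of the members lay between -0.14 and -0.06 in all settings. The 17 genes past the threshold for age became 125 by DESeq2, 1 by limma-voom, 26 with older dispersions, 128 with the granule neuron score, 0 with the choroid plexus score, 103 with age in weeks, 110 with the brainstem and cerebellar nuclei score, 184 without the 3 libraries richest in liver transcripts and 0 to 63 with 1 library left out (0 without young 3 or young 4, 2 without old 1 or young 1, 8 without young 2, 49 without old 3, 63 without old 2). The cause was not tested. Members with all old values below all young ones, 3 in the main analysis, were 2 with DESeq2 size factors and 1 with library totals without TMM. They were 4 without the liver-rich libraries and 3 to 4 with 1 library left out. CPM were not rescaled when libraries were left out, so those counts could not fall below 3 and do not show stability. The count of members without overlap and the levels per kb, with all their settings, the brainstem score and all other settings for the Vamp1 interaction were chosen after seeing the data.

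The age change of Syn1 turned positive with a filter of 50 counts (0.003), with the granule neuron score (0.018), with the choroid plexus score (0.015) and without the liver-rich libraries (0.11), and ran from -0.096 to 0.063 with 1 library left out. That of Syt1 turned to 0.019 with the granule neuron score and ran from -0.146 to 0.017 with 1 library left out. Sex differences ran from -0.081 to 0.092 for Syn3, -0.101 to 0.034 for Vamp2, -0.178 to 0.008 for Syt1 and -0.066 to 0.104 for Snap25 with 1 library left out.

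With the replicate number as a block, 0 members and 1 gene of all passed, and the members' median stayed at -0.10. The correlations of the deviations of old and young mice for the 4 numbers were 0.156, -0.222, -0.048 and -0.252. Numbers 2 and 3 join a male and a female, and with sex removed the values were -0.222, 0.052, -0.017 and -0.554. No old mouse correlated best with the young mouse of its number, while young 1 correlated best with old 1. Such correlations cannot exclude a batch shared by mice of 1 number, and the labels were not read as pairs.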

Other observations

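The mean of the members' centred log2 CPM varied little over the 8 libraries, with an SD of 0.06. Of 9283 genes whose mean log2 CPM reached 4, those whose profile lay closest to it by root mean square difference were 2410002F23Rik at 0.02, Ehd3, an endocytic recycling ATPase, at 0.03, Zfp668 at 0.03, and Arf5, Slc44a2 and Ccnj at 0.04, beside a median of 0.15 over all of them. The members themselves ranked between 673rd for Syn2 and 6788th for Syn3. Above its own mean over libraries stood 5, 2, 5 and 2 members in old 1 to old 4, and 5, 7, 4 and 6 members in young 1 to young 4.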
